A study of Mus musculus with 12 samples.

Results

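The 6 genes described here serve glutamate uptake and recycling by astrocytes. They are Slc1a3 and Slc1a2, which encode the glial glutamate transporters GLAST and GLT-1, Slc1a4, Glul, Glud1 and Slc38a3. They were chosen by symbol from the 24421 entries of the deposited expression table, and all 6 were present in it. The study sequenced RNA from cells sorted for green fluorescent protein from cerebella of mice of the Aldh1l1-GFP reporter line, collected on postnatal days P1, P7, P14 and P28. There were 3 libraries per time point and 12 in all. The mice were kept on the C57/BL6J background, animals of both sexes were used, and no group was treated. In this line the Aldh1l1 regulatory sequence drives the reporter, so the sort takes any cell in which that sequence is active, and the age is the only difference that the labels give between the groups. The labels do not say whether the 3 libraries of a time point came from separate animals, and p-values then measure the spread between these samples, which may be technical.

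Glutamate released at synapses is cleared mainly by astrocytes. SLC1 transporters carry it into the cell together with sodium, and the sodium pump keeps up the gradient on which they depend. Inside the astrocyte, glutamine synthetase, the product of Glul, turns glutamate and ammonia into glutamine. The carrier SNAT3, encoded by Slc38a3, can release that glutamine for neurons to use again. Glutamate dehydrogenase, encoded by Glud1, instead feeds the carbon of glutamate into the citric acid cycle of the mitochondrion. In the cerebellum GLAST is best known from Bergmann glia, whose processes wrap the synapses on Purkinje cell dendrites. The product of Slc1a4, ASCT1, belongs to the same protein family but exchanges neutral amino acids such as serine and alanine, so it is not a glutamate transporter in the sense of the other SLC1 members described here.

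On GRCm38 the 6 genes lie on separate chromosomes. The gene models of GENCODE M21 place Slc1a2 at chr2:102658659-102790784 on the plus strand, Slc1a3 at chr15:8634124-8710764 on the minus strand, and Slc1a4 at chr11:20302180-20332713 on the minus strand. Glul lies at chr1:153899944-153909723 on the plus strand, Glud1 at chr14:34310727-34345265 on the plus strand, and Slc38a3 at chr9:107650634-107669530 on the minus strand. All are protein coding. Glul is overlapped by Teddm2 on the opposite strand and by the microRNA gene Mir8114. Teddm2 had between 0 and 6 reads in a library and Mir8114 had 0, so reads of these neighbours were few beside those of Glul. An antisense gene within Slc1a2, Gm13872, and an unclassified transcript within Slc1a3, Gm37310, had no entry of their own, and the sources used here do not state whether counting used strand.

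The genes Slc1a3, Glul and Slc1a4 stand for the different courses described further on, a transporter and an enzyme that rose after P7 and a transporter that fell after P1, and the 250 bases before their RefSeq start sites are printed here so that their promoters can be compared. They are read 5' to 3' along the gene, from GRCm38.p6. Capitals mark matches on either strand to 3 short motifs, the GC box with the letters GGGCGG, the CCAAT box, and the TATA box with the letters TATAAA.
Slc1a3, chr15:8710808-8711057, minus strand: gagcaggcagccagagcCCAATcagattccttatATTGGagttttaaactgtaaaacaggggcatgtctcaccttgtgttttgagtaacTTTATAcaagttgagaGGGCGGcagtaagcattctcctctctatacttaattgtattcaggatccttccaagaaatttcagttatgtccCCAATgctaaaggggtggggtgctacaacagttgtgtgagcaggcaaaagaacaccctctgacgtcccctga
Glul, chr1:153899679-153899928, plus strand: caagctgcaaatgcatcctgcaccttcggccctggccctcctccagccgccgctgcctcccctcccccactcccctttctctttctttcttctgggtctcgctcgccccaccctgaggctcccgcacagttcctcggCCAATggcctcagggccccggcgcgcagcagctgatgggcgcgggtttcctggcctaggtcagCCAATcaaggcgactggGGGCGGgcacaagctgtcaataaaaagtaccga
Slc1a4, chr11:20332714-20332963, minus strand: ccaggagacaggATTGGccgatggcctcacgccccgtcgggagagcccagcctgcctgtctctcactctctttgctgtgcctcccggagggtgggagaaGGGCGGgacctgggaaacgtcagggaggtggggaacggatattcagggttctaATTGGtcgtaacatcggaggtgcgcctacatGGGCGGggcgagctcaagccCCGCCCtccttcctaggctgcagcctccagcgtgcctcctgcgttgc

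The promoter of Slc1a3 held 2 CG dinucleotides, that of Glul 15 and that of Slc1a4 16, against a median of 6 over the 32851 promoters of the RefSeq table. Glud1, also in the table, held 46, and the window listed for Slc1a2 held 1. That window ends inside the gene model of Slc1a2 rather than at its first exon, and it is not printed for that reason. Slc38a3 had no entry. These motifs were counted as matches of letters alone, and whether any of them acts was not tested. The Slc1a3 window had 3 matches to the CCAAT box, 1 to the GC box and 1 to the TATA box. The last was on the other strand, as TTTATA, and nearer the upstream end of the window than the start site. In Glul there were 2 CCAAT boxes and 1 GC box, and in Slc1a4 2 CCAAT boxes and 3 GC boxes. Glud1 had 3 GC boxes alone, and none of these motifs was found for Slc1a2. Of all promoters of this length, 33.8% held a CCAAT box, 32.7% a GC box and 12.4% a TATA box. Neither the SOX motif AACAAT, present in 9.42% of all promoters, nor the nuclear factor I half-site TTGGCA, present in 12.3%, was found in any of the 5 windows.

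Between 6399499 and 14733985 reads per library were assigned to genes, and the shallowest library was P7 replicate 2. Values are given as normalized counts, that is, reads divided by 1 size factor for each library, with the mean and standard deviation (SD) of the 3 libraries of a time point. Changes were tested with limma on log2(normalized count + 1) over the 15464 genes that reached 10 in at least 3 libraries. They are given as log2 fold changes with their standard error (SE), and a gene was called at a Benjamini-Hochberg adjusted p under 0.05 over all genes tested. All 6 genes entered this test, and each changed over the 4 time points in the F test of the same fit, as did 43.8% of all genes. The adjusted p-values of that test ran from 4.87e-08 for Slc1a2 and 1.23e-07 for Slc1a3, through 5.23e-07 for Glul, 2.67e-06 for Slc38a3 and 1.53e-05 for Glud1, to 0.000368 for Slc1a4.

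Slc1a3 is the transporter with the highest values of the group. Its normalized counts were 20875, 13205 and 16041 in the P1 libraries, 12679, 6854 and 11879 at P7, 56504, 72149 and 50270 by P14 and 107590, 124670 and 132260 by P28. Every P7 library was below every P1 library, and the P14 and then the P28 libraries lay wholly above the time point before. The means were 16707 ± 3878 (SD, n = 3) at P1, 10471 ± 3157 at P7, 59641 ± 11270 by P14 and 121510 ± 12640 by P28. The step from P7 to P14 was a 5.83-fold rise. The lower level at P7 did not pass the test (adjusted p = 0.0927), and the difference was -0.70 with a 95% interval from -1.20 to -0.20 before adjustment over genes.

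Slc1a2, the transporter that carries most of the glutamate uptake in the forebrain, had 12513, 14188 and 10657 normalized counts at P1, 9132, 4844 and 9051 at P7, 40733, 41172 and 38590 by P14 and 86809, 82296 and 93632 by P28. The time points did not overlap at any step, and P7 replicate 2 stood lowest of all 12 libraries. Slc1a2 fell by 0.75 from P1 to P7 (SE 0.21, adjusted p = 0.0422), rose by 2.45 from P7 to P14 (SE 0.21, adjusted p = 2.45e-06), a 5.45-fold change, and rose by a further 1.12 to P28 (SE 0.21, adjusted p = 0.00386). The fall at P7 was close to the threshold. Without P7 replicate 2 the change from P1 to P7 was -0.44 with an adjusted p of 0.116, and without P1 replicate 1 or P1 replicate 2 it was -0.74 and -0.65 with adjusted p-values of 0.126 and 0.16. It also just missed the threshold, at adjusted p-values from 0.0509 to 0.0636, when P14 replicate 1, 2 or 3 or P28 replicate 1 was left out.

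**Figure D1:**
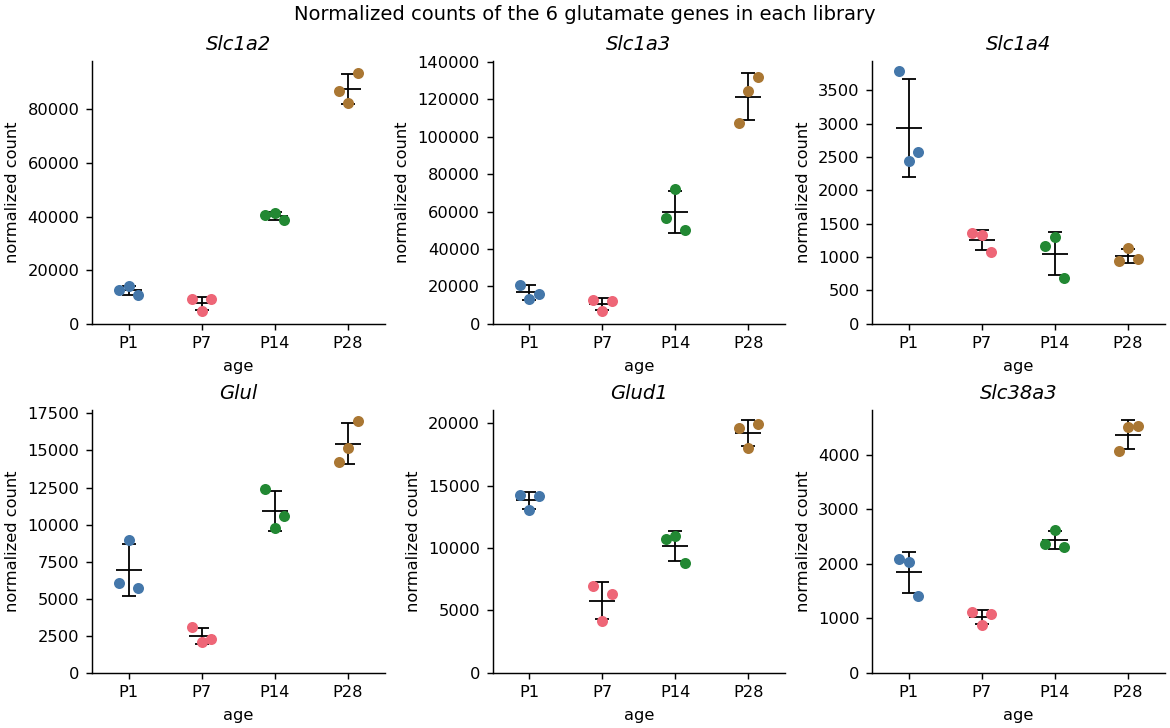
Normalized counts (vertical axis, each panel with its own scale from 0) of the 6 genes at the 4 ages (horizontal axis), where each point is 1 library and the bars are the mean and SD of 3. All 6 genes stood lower at P7 than at P1, 5 were called higher at P14 than at P7 and 4 of these at P28 than at P14, and Slc1a4 had means of 1255, 1050 and 1014 from P7 on.

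Glul codes for glutamine synthetase, the enzyme that disposes of the glutamate taken up. Its 3 P1 libraries had 6089, 8940 and 5735 normalized counts, the P7 libraries 3069, 2069 and 2267, the P14 libraries 12407, 9779 and 10594, and the P28 libraries 14227, 15179 and 16970. No library of one time point reached the range of the next, and P1 replicate 2 stood well above the other P1 libraries. Among the 6 genes, Glul had the lowest change from P1 to P7, a fall to 0.359 of its earlier level (it fell by 1.48 on the log2 scale, SE 0.19, adjusted p = 0.000316). It then rose 4.47-fold from P7 to P14 (2.16, SE 0.19, adjusted p = 3.11e-06). The further difference to P28 was 0.50 (SE 0.19) and did not pass the test (adjusted p = 0.0921), with a 95% interval from 0.10 to 0.91.

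Glud1, the mitochondrial glutamate dehydrogenase, was measured at 14285, 13006 and 14127 normalized counts at P1, 6945, 4119 and 6297 at P7, 10698, 10997 and 8812 by P14 and 19609, 17994 and 19964 by P28. The P1 libraries therefore lay above the P7 and P14 libraries and below those of P28, with no overlap between any of the time points. Glud1 fell by 1.29 from P1 to P7 (SE 0.18, adjusted p = 0.00047), rose by 0.84 to P14 (adjusted p = 0.00346) and by 0.92 to P28 (adjusted p = 0.00449). Its rise at P14 was 1.79-fold, the smallest of the 5 genes that rose there. From P1 to P28 the difference was 0.47 (95% interval 0.10 to 0.85) and just missed the threshold (adjusted p = 0.0504).

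Slc38a3, the glutamine carrier, had the lowest values among the genes that rose. It was measured at 2089, 2036 and 1412 normalized counts at P1, 1108, 873 and 1070 at P7, 2361, 2630 and 2319 by P14 and 4071, 4523 and 4528 by P28. Each step left the time points without overlap. It fell by 0.84 to P7 (SE 0.17, adjusted p = 0.00712), rose 2.4-fold to P14 (1.26, SE 0.17, adjusted p = 0.000123) and 1.8-fold to P28 (0.84, SE 0.17, adjusted p = 0.00635).

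Slc1a4 took a different course. It had 3785, 2447 and 2574 normalized counts at P1, 1362, 1330 and 1074 at P7, 1163, 1303 and 684 by P14 and 938, 1136 and 967 by P28. The P1 libraries were above all others, and the libraries of the 3 later time points overlapped each other. Slc1a4 fell by 1.20 from P1 to P7 (SE 0.24, adjusted p = 0.00606). From P7 to P14 the difference was -0.30 (95% interval -0.82 to 0.21, adjusted p = 0.433), and from P14 to P28 it was -0.003 (95% interval -0.52 to 0.51, adjusted p = 0.997). Its level at P28 was 1.51 below that at P1 on the log2 scale, as a difference of -1.51 (SE 0.24, adjusted p = 0.000263).

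Read together by step, 5 of the 6 genes were called lower from P1 to P7, against 4.24% of all genes tested, and none was called higher. The libraries of P7 lay wholly below those of P1 for all 6, which held for 18.2% of all genes. From P7 to P14, 5 of 6 were called higher, against 10.8% of all genes, and the same 5 did not overlap, against 21.3%. From P14 to P28, Slc1a2, Slc1a3, Glud1 and Slc38a3 were called higher, 4 of 6 against 5.68% of all genes, and with Glul 5 of 6 did not overlap, against 11.7%. The median log2 fold change of the 6 genes was -1.02, 1.71 and 0.88 in these steps, beside 0.037, -0.086 and -0.12 over all genes. Between P1 and P28, Slc1a3 was 2.88 higher (adjusted p = 5.96e-07), Slc1a2 2.82 (adjusted p = 2.41e-07), Slc38a3 1.26 (adjusted p = 7.1e-05) and Glul 1.18 (adjusted p = 0.000289), so that 4 of 6 were called higher against 14.6% of all genes, and Slc1a4 was called lower, as were 20.0% of all genes. Without P14 replicate 3, the rise of Slc1a3 from P14 to P28 was 0.92 with an adjusted p of 0.0527. In bulk samples like these, fewer cells of a type and less RNA per cell cannot be told apart.

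**Figure D2:**
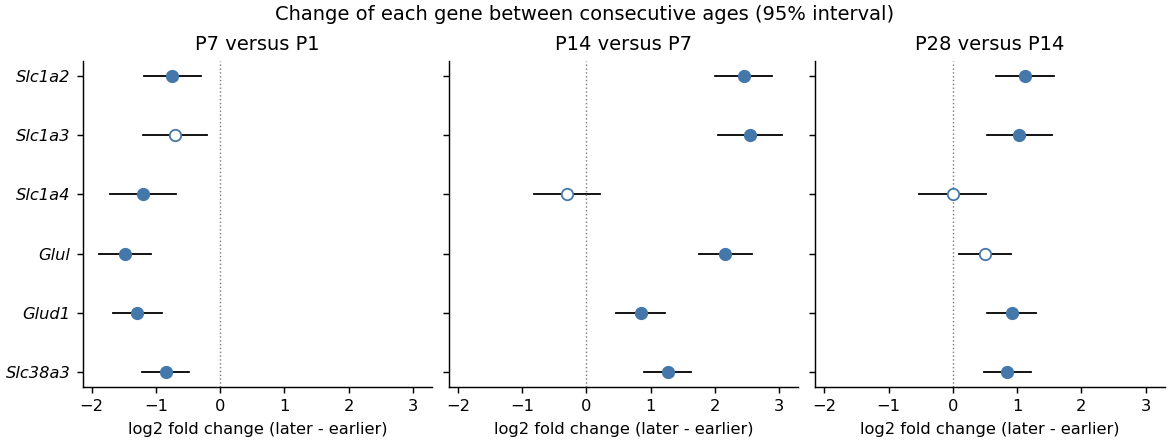
Log2 fold change of each gene (horizontal axis, later minus earlier age) for the 3 consecutive steps, with its 95% interval from the limma fit of 12 libraries, filled where the adjusted p was under 0.05. Glul had the lowest value at P7 (-1.48), Slc1a3 and Slc1a2 the highest at P14 (2.54 and 2.45), and Slc1a4 lay near 0 at P28 (-0.003).

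Levels can be compared between genes only per length, so normalized counts were divided by the kilobases of exon of each gene, counting each exon base of any transcript once. On this scale Slc1a3 had 3794, 2378, 13540 and 27590 normalized counts per kilobase at P1, P7, P14 and P28, and Slc1a2, whose exons cover 12092 bases against 4404, had 1030, 635, 3322 and 7243. Per kilobase, the transcript of GLAST was the more abundant one at every age. It was so by 3.76 ± 1.06 times (SD, n = 3) at P1, 3.77 ± 0.146 at P7, 4.07 ± 0.656 by P14 and 3.81 ± 0.382 by P28. These ratios rest on GENCODE exon lengths, whereas the reads were counted on UCSC annotation. Before division by length, Slc1a2 had 0.681 to 0.754 of the counts of Slc1a3 as geometric means of the ages, and 1.07 in P1 replicate 2. Glud1 had 4073, 1707, 3000 and 5660 per kilobase and Glul 2479, 884, 3913 and 5537. Slc1a4 had 748, 320, 268 and 258, and Slc38a3 519, 286, 685 and 1229.

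The order of the genes per kilobase changed with age. At P1 it ran from Glud1 through Slc1a3, Glul, Slc1a2 and Slc1a4 to Slc38a3, and the libraries of Glud1, Slc1a3 and Glul overlapped between neighbours, as did those of Slc1a2 and Slc1a4. By P7 Slc1a3 stood first, with libraries that overlapped those of Glud1. Glul and Slc1a2 overlapped there too, as did Slc1a4 and Slc38a3. At P14 the order was Slc1a3, Glul, Slc1a2, Glud1, Slc38a3 and Slc1a4, and only Slc1a2 and Glud1 overlapped. At P28 Slc1a2 stood second, and Glud1 and Glul behind it overlapped. Glud1 thus held the first place at P1, although it was not separated from Slc1a3, and at P28 it lay at 5660 per kilobase beside 27590 for Slc1a3. Among the 23309 entries with a length, the median rank of Slc1a3 was 50 at P1, 84 at P7, 14 by P14 and 8 by P28, and that of Slc1a2 254, 414, 72 and 44. The 6 genes together took 0.610% ± 0.042 (SD, n = 3) of all reads at P1, 0.332% ± 0.082 at P7, 1.21% ± 0.12 by P14 and 2.05% ± 0.064 by P28.

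To compare the genes within a library, without its size factor, the log2 ratio of each to Slc1a3 was taken in every library and tested over the 4 time points with an exact permutation test of the F statistic, which has no direction, with adjustment over the 5 ratios. The ratio of Slc1a2 to Slc1a3 was -0.74, 0.10 and -0.59 in the P1 libraries, -0.47, -0.50 and -0.39 at P7, -0.47, -0.81 and -0.38 by P14 and -0.31, -0.60 and -0.50 by P28. The values of the 4 time points overlapped throughout, and the means, which ran from -0.55 to -0.41, were not separated (exact p = 0.943, adjusted p = 0.943). Over the same time points both genes changed by more than 5-fold. For every other gene the ratio did change.

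The ratio of Glud1 to Slc1a3 went from -0.25 ± 0.27 (SD, n = 3) at P1 to -0.84 ± 0.09 at P7, -2.54 ± 0.16 by P14 and -2.66 ± 0.18 by P28 (exact p = 0.00026, adjusted p = 0.000649). In normalized counts there were 0.84 reads of Glud1 for each read of Slc1a3 at P1 and 0.158 at P28. Glul went from -1.27 ± 0.63 at P1 through -2.05 ± 0.33 and -2.44 ± 0.39 to -2.97 ± 0.06 at P28 (exact p = 0.00143, adjusted p = 0.00238), or from 0.413 to 0.127 reads per read of Slc1a3. The ratio of Slc38a3 was -3.17 ± 0.42 at P1 and -3.32 ± 0.30 at P7 against -4.60 ± 0.17 at P14 and -4.79 ± 0.07 at P28 (exact p = 0.00299, adjusted p = 0.00373). The P7 and P14 values of this gene did not overlap, while P1 and P7 did. Slc1a4 moved most, from -2.51 ± 0.11 at P1 to -3.02 ± 0.58, -5.86 ± 0.30 and -6.90 ± 0.17 (exact p = 0.00026, adjusted p = 0.000649).

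**Figure D3:**
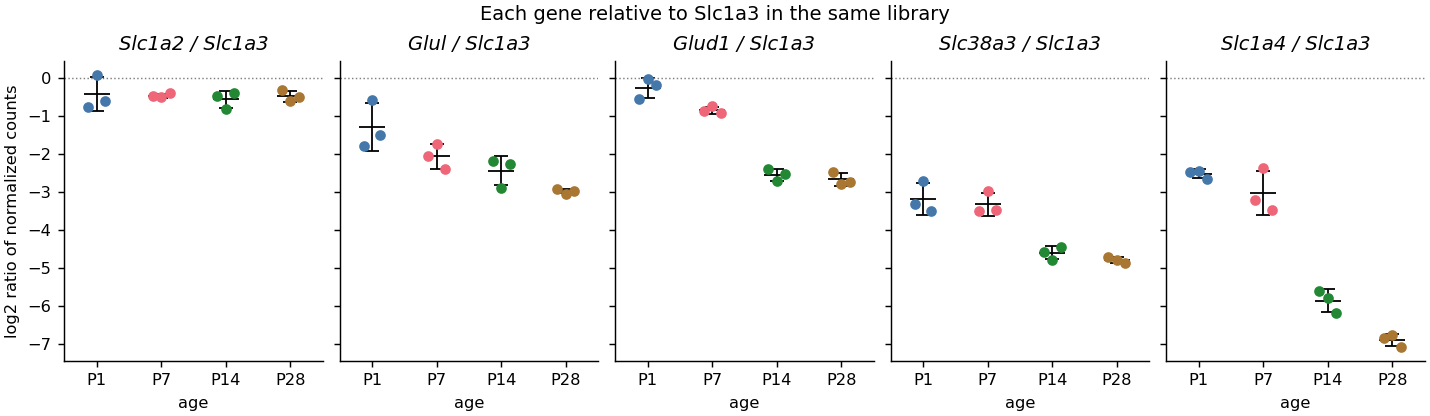
Log2 ratio of the normalized counts of 5 genes to those of Slc1a3 in the same library (vertical axis, shared scale) at the 4 ages, with points for libraries and bars for the mean and SD of 3. The ratio of Slc1a2 stayed between -0.55 and -0.41 in its means, whereas that of Slc1a4 went from -2.51 to -6.90 and that of Glud1 from -0.25 to -2.66.

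Across the 12 libraries the log2 values of Slc1a2 and Slc1a3 had a Pearson r of 0.988, and 0.647 once the mean of each time point was removed. These are descriptions of libraries that share their time points and size factors. Slc1a4 had correlations between -0.51 and 0.124 with the other 5 genes. Outside the group, among 10212 genes with a mean of at least 100, the genes whose pattern over the 12 libraries was most like that of Slc1a2 were Slc4a4 (r = 0.996), a sodium bicarbonate cotransporter of astrocytes, Timp4 (0.995) and Arrb1 (0.995). Closest to Slc1a3 were Actr3b (0.995), the phosphofructokinase gene Pfkm (0.995) and Pla2g7 (0.994). Closest to Glul were the metallothionein gene Mt2 (0.988), Ndrg2 (0.988) and Epdr1 (0.986). Mt2 had means of 2885, 340, 8738 and 15230 from P1 to P28. For Glud1 they were Spon1 (0.994), Npas3 (0.985) and the brain glycogen phosphorylase Pygb (0.977), and for Slc38a3 Psap (0.992), Sfxn5 (0.992) and Slc41a1 (0.986). Slc1a4 was most like Idh1 (0.967), the cytosolic isocitrate dehydrogenase, with means of 1464, 1036, 894 and 870, followed by Fat4 (0.951) and Maged2 (0.939).

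The other genes that handle glutamate were described through 7 lists with 50 genes, of which 48 were tested. In the step to P7, 6 were called higher and 6 lower, where 3.47% of all genes were called higher and 4.24% lower. The step to P14 had 12 higher and 3 lower, with 10.8% and 10.0% of all genes, and the step to P28 had 5 higher and 7 lower, with 5.68% and 8.76%. Across the whole span, P28 against P1, 14 were higher and 10 lower, beside 14.6% and 20.0%. The medians of their log2 fold changes were 0.12, 0.42, -0.45 and 0.20. These counts depended on single libraries and on the settings. From P1 to P7, 3 were called lower without P1 replicate 1, P1 replicate 2 or P7 replicate 2. From P7 to P14, 6 were called lower without P28 replicate 1 or P28 replicate 3 and 5 without P28 replicate 2. In the same step, 9 were called higher without P7 replicate 1, P7 replicate 3 or P14 replicate 2. From P14 to P28, 2 were called higher without P14 replicate 3, and 3 without P14 replicate 2 or P28 replicate 2. Over the other settings that adjust over genes, from 4 to 11 were called higher and from 6 to 10 lower in the step to P7. The step to P14 had from 9 to 14 higher and from 2 to 7 lower. The step to P28 had from 3 to 6 higher and from 4 to 8 lower. Between P1 and P28, from 11 to 17 were higher and from 4 to 14 lower.

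The sodium pump supplies the gradient for glutamate uptake. Its beta subunit gene Atp1b2 had 6973 to 11160 normalized counts at P1, 2640 to 5377 at P7, 29540 to 33040 by P14 and 56330 to 69870 by P28, with no overlap between the time points. Its rise to P14 was 2.91 (adjusted p = 2.07e-06). Its fall of 1.02 to P7 (adjusted p = 0.0191) was not called without P1 replicate 1, P1 replicate 2 or P7 replicate 2 (values of -1.06, -0.82 and -0.68, adjusted p-values from 0.0534 to 0.0956), and its rise of 1.02 to P28 (adjusted p = 0.0136) was 0.97 without P14 replicate 3 (adjusted p = 0.0552).

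Of the other SLC1 genes, 3 were tested and none was called from P1 to P7 or from P7 to P14. Slc1a5, the glutamine-exchanging relative of ASCT1, had 84.1 to 267 normalized counts at P1, 55.8 to 135 at P7, 95.2 to 151 by P14 and 1.18 to 2.92 by P28. It was called lower at P28 than at P14 (-5.56, SE 0.63, adjusted p = 0.000273). Its P28 values lay below those of 3 reads in each library (4.38, 3.54 and 4.06). The size of this change therefore depends on the 1 added before the log. Slc1a1, the neuronal transporter EAAC1, had 363 to 801 at P14 and 133 to 270 at P28 (-1.57, SE 0.34, adjusted p = 0.0078, and 0.0508 with only those ages fitted). These genes lay far below the glial transporters in counts at each time point. Slc1a6, the transporter of Purkinje cells, had at most 38.8 in any library.

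Among the 9 glutamine and cystine carriers, Slc38a1, which takes up glutamine, was the most abundant, with 1673 to 3174 normalized counts at P1 and 16220 to 18150 at P28. It rose by 1.52 from P14 to P28 (SE 0.21, adjusted p = 0.000569). Slc7a6, with 60.4 to 177 normalized counts at P14 and 17.6 to 60.2 at P28, was called lower in that step (-1.85, SE 0.53, adjusted p = 0.031). That call was lost without P7 replicate 3, P14 replicate 2, P14 replicate 3 or P28 replicate 3 (values from -1.85 to -1.45, adjusted p-values from 0.0514 to 0.111) and with only those ages fitted (adjusted p = 0.218). Slc7a11, which exchanges cystine for glutamate, had 1266 to 1999 at P1 and 1958 to 2144 at P28, and was not called in any comparison. Of the 15 enzymes tested, Gpt2, a mitochondrial alanine aminotransferase, fell by 1.32 from P1 to P7 (adjusted p = 0.00346). The cytosolic aspartate aminotransferase Got1 rose by 1.36 to P14 (adjusted p = 0.00433). Gad2, which turns glutamate into GABA, was higher at P7 than at P1 (2.58, adjusted p = 0.00468) and lower again at P14 (-2.40, adjusted p = 0.00286), with 535 to 1044 normalized counts at P7. The summed markers of interneurons, among which Gad1 and Gad2 count, were also highest at P7, at 2263 to 4923 against 292 to 1352 at P1.

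The mitochondrial glutamate carrier Slc25a18 had 897 to 1133 normalized counts at P1, 281 to 666 at P7, 1083 to 1794 by P14 and 2333 to 2972 by P28, and rose by 1.48 from P7 to P14 (adjusted p = 0.00188). The metabotropic receptors moved in both directions. Grm3, the metabotropic receptor most often linked to astrocytes, fell by 1.96 from P1, where it had 3539 to 4926, to P7, where it had 665 to 1441 (adjusted p = 0.000459). Grm5, which is known from immature astrocytes, fell by 3.57 from P1 to P28 (adjusted p = 3.84e-06), from 915 to 1464 normalized counts at P1 to 54.1 to 146 at P28. Grm4, a receptor of granule neurons, rose by 2.76 to P7 (adjusted p = 0.000341) and 3.57 to P14 (adjusted p = 9.54e-06). Slc17a7, the vesicular glutamate transporter of granule neurons, had 0.615 to 6.82 normalized counts at P1 and 1188 to 1857 at P14, and rose by 4.83 from P7 to P14 (adjusted p = 0.000217). The summed markers of granule neurons went from 323 to 610 at P1 to 8158 to 17590 at P14 in the same libraries.

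**Figure D4:**
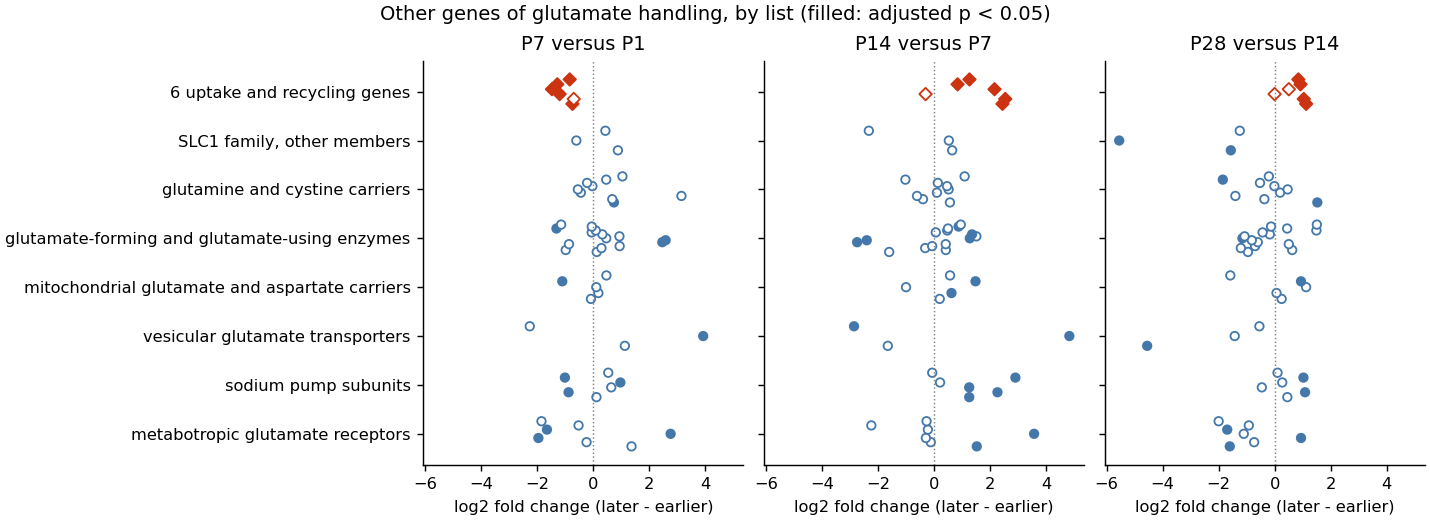
Log2 fold changes (horizontal axis, later minus earlier age) in the 3 consecutive steps for the 6 genes (diamonds) and for the 48 tested genes of 7 lists (circles), filled where the adjusted p was under 0.05. The 6 genes all lie below 0 at P7, and 12 of the 48 were called higher at P14.

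The sorted cells held markers of astrocytes in every library, and the summed level of the 10 astrocyte markers moved in the same directions as 5 of the 6 genes. It was 42420 to 55940 normalized counts at P1, 19920 to 37830 at P7, 75940 to 95600 by P14 and 186700 to 227500 by P28. As log2 differences of this sum, the steps were -0.73, 1.53 and 1.24, beside -0.70, 2.54 and 1.04 for Slc1a3 and -0.003 for Slc1a4 in the last step. Of the 10 markers, 5 were called lower and 3 higher in the step to P7. In the step to P14, 7 were higher and 1, Fabp7, was lower, and 7 were higher and none lower in the step to P28. The sum is weighted to the most abundant markers. From P1 to P7 the means of Fabp7 and Aldoc went from 15870 and 9485 to 5855 and 2039, while that of Aqp4 went from 9686 to 14590. Aldh1l1, whose regulatory sequence drives the reporter, had 3841 to 6441 at P1, 936 to 1985 at P7, 1824 to 1978 by P14 and 2451 to 3338 by P28, and fell by 1.80 from P1 to P7 (adjusted p = 0.000466). The 7 Bergmann glia markers summed to 42890 to 55740 at P1, 12810 to 22430 at P7, 49440 to 63600 by P14 and 97060 to 126700 by P28. They did not fall together at P7, where Tnc, Slc6a11 and Fgfr3 were called lower and Gria1 and Gria4 higher. The median log2 fold change of the 7 in that step was 0.56. In the step to P14, 6 were called higher and 0 lower, and in the step to P28, 3 higher and 1 lower. The part of these markers in the changes of the 6 genes was not tested.

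Markers of other cells moved as well. The 8 oligodendrocyte markers, which include Mbp, summed to 1525 to 2370 at P1, 21700 to 33360 at P7, 311000 to 369700 by P14 and 101900 to 141600 by P28. All 8 were called higher from P7 to P14 and 6 were called lower from P14 to P28. The oligodendrocyte precursor markers summed to between 1222 and 6519 over all libraries, and they did not move alike. Pdgfra was called lower at each step, with means from 3646 at P1 to 352.6 at P28. Gpr17 was called higher from P7 to P14 and lower from P14 to P28. Cspg4 was called only between P1 and P28, as lower. The 4 granule neuron precursor markers summed to 16400 to 22200 at P7 and 21.2 to 36.5 at P28. Most of the P7 sum came from Mki67 and Top2a, genes of dividing cells of any type, with means of 11540 and 7078. Atoh1 and Barhl1 had P7 means of 36.41 and 216.5, and Atoh1 was listed at 0 in all libraries of P14 and P28. Gabra6, a marker of granule neurons, was listed at 0 in all P1 libraries. Choroid plexus markers, mostly Ttr, ran from 275 to 752 at P1, from 47810 to 127400 at P7, from 861 to 108800 by P14 and from 17710 to 181600 by P28. Across all libraries the Purkinje cell markers summed to 983 to 4178, those of microglia to 449 to 2775 and those of endothelial cells to 545 to 5541. The 4 globin genes were listed at 0 throughout. The part of these other cells in the changes of the 6 genes was not tested.

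P7 replicate 2 stood apart from the other P7 libraries. It was lower than their mean by log2 differences of -0.91 for Slc1a2, -0.84 for Slc1a3, -0.68 for Glud1, -0.35 for Glul and -0.32 for Slc38a3, and higher by 0.14 for Slc1a4. In the same library the astrocyte marker sum differed by -0.88, the Bergmann glia sum by -0.78, the choroid plexus sum by 1.24 and the endothelial sum by 2.22. Without it, 4 of the 6 genes were still called lower from P1 to P7, and 5 were called higher from P7 to P14.

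**Figure D5:**
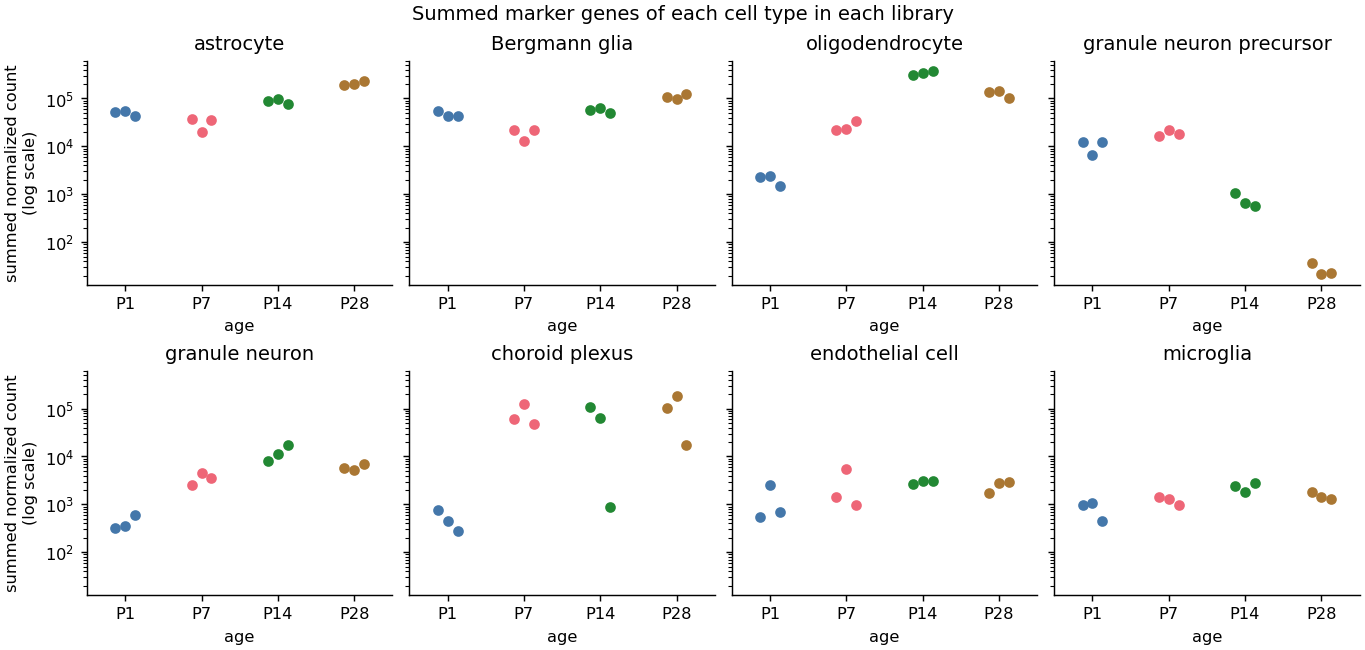
Summed normalized counts of the marker genes of 8 cell types in each library (vertical axis, log scale) at the 4 ages. The astrocyte sum was lowest at P7 (19920 to 37830) and highest at P28 (186700 to 227500), and the oligodendrocyte sum was highest at P14 (311000 to 369700).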

How the data were processed

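RNA of cells sorted for the Aldh1l1-GFP reporter from the mouse cerebellum from P1, P7, P14 and P28 mice was sequenced in 3 libraries per age. Reads were mapped by the authors to mm10 using STAR (2.5.0a in their processing notes), counted them per gene on UCSC annotation from Illumina iGenomes, and divided within each library by 1 DESeq2 size factor. The deposited unit is therefore a signal, namely normalized counts. All values (100%) were whole multiples of 1 step per library, within 0.01, and dividing by it gave back the reads. Treatment of strand and of reads with several matches is not given in the sources used here. Each column was assigned to a library by its label, and 0 columns had none. Since every column name carries P28, the ages rest on the labels.

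limma 3.58.1 in R 4.3.3 was fitted to log2(value + 1) of the 12 libraries, with 1 mean per age and a variance trend, for 15464 genes with at least 10 in 3 libraries or more. The alternatives used edgeR 4.0.16 and DESeq2 1.42.0 on the recovered reads, other scalings, filters and pseudocounts, only the ages compared, a replicate block, the study's threshold (log2 fold change over 0.75 at an unadjusted p under 0.05), and each library left out. The fit was tested on simulated data. Ratios to Slc1a3 were tested over all 369600 assignments of libraries to ages, where the smallest p possible is 6.49e-05. Exon lengths came from GENCODE M21, promoters from RefSeq (5 of 6 genes matched). Replicate libraries agreed at r between 0.931 and 0.981, and none was a copy of another (chi-square per degree of freedom at least 9.57). All 6 genes were named, with the 3 genes outside all lists most correlated with each, the 2 most abundant genes of each list and up to 3 called genes of largest change in each comparison, of which the more stable ones are described. Slc7a11 was added after its values were seen. Some genes that this rule names are not reported here. The genes and lists were chosen with earlier results of these data known.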

Additional observations from a re-analysis of the deposited data

How the results depend on the processing

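Over the 12 settings other than leaving out a library, the 24 changes of the 6 genes gave 288 comparisons, of which 277 kept their direction and call, 8 lost the call, 3 gained it and 0 turned. The 8 were all the fall of Slc1a2 from P1 to P7, with values from -0.75 to -0.68 and, among the settings that adjust over genes, adjusted p-values from 0.0527 to 0.0688. The 3 were the difference of Glud1 between P1 and P28, called with only those ages fitted (adjusted p = 0.039), with edgeR and TMM (adjusted p = 0.0493) and with the replicate block (adjusted p = 0.0499). Leaving out 1 library at a time kept 274 of 288, lost 8, gained 2 and turned 4. The 4 were the difference of Slc1a4 from P14 to P28, which ran from -0.29 to 0.18 and was near 0 throughout. The change of Slc1a2 from P1 to P7 ran from -0.90 to -0.44 and that of Slc1a3 from -0.86 to -0.42. The counts of genes called ran from 4 to 5, stayed at 5, ran from 3 to 4 and from 5 to 6 in the comparisons in the order given in the report. The range of the mean ratios to Slc1a3 ran from 0.06 to 0.31 for Slc1a2, 4.30 to 4.46 for Slc1a4, 1.34 to 1.95 for Glul, 2.29 to 2.56 for Glud1 and 1.47 to 1.78 for Slc38a3. The causes were not tested.

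Scaling by library totals alone moved the median log2 fold change over all genes from 0.037 to 0.097, from -0.086 to -0.345, from -0.122 to -0.35 and, between P1 and P28, from -0.235 to -0.667, and left 1203 genes higher and 2475 lower from P7 to P14 (1676 and 1551 otherwise), 454 and 1941 from P14 to P28 (878 and 1354) and 1366 and 5183 from P1 to P28 (2264 and 3086). Glud1 was then 0.039 higher at P28 than at P1. With only the ages compared, 1338 genes were higher and 1472 lower from P1 to P7 (536 and 655 otherwise), 480 and 383 from P14 to P28, and 1624 and 1726 from P1 to P28, and DESeq2 called 841 and 967 from P1 to P7.

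The replicate numbers pair no libraries by the labels, and 1 of 18 pairs of libraries with the same number had deviations that correlated above 0.1 (range -0.029 to 0.139). With the replicate block, 4 of the 6 genes were called from P1 to P7, 5 from P7 to P14, 4 from P14 to P28 and 6 from P1 to P28. Levels per kilobase of the longest transcript in place of all exons, an alternative chosen after seeing the data, changed the order at P7 alone, where Slc38a3 (323) then stood above Slc1a4 (320), and moved Slc1a2 at P14 to 3464 and Slc38a3 at P14 and P28 to 773 and 1388. With 3 libraries per age, an exact test of 1 pair of ages cannot go below 0.1, so single steps rest on the fit across genes. Low genes such as Slc1a6 had few reads, and their changes are the least certain.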
